A study of Mus musculus with 100 samples.

Results

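The circadian clock and Rev-erb loci are the ChIP-seq regions whose nearest listed gene was 1 of 10 genes: Npas2, Clock, Arntl, Per1, Per2, Cry1, Nr1d1, Nr1d2, Bhlhe40 and Bhlhe41. These genes gave 475 of the 610301 regions in 15 tables, which hold 70 distinct libraries in groups of 2 replicates. In the NCoR table they gave 47 of 55045 regions. They were chosen by gene name with earlier results of these data known, and Npas2 was selected on its lower NCoR tags with KLA, so NCoR values with and without KLA are given here as a description with no test. The cells were bone marrow-derived macrophages (BMDMs) from C57BL/6 mice. KLA (Kdo2 lipid A) is a ligand of TLR4, the receptor for bacterial lipopolysaccharide, and was compared with vehicle (Veh) in wild-type cells for NCoR, its partner deacetylase HDAC3, the NF-kB subunit p65, the AP-1 subunit Fosl2, the lineage factor PU.1, the coactivators PGC1b and p300, and the kinase ERK1. KLA was given for 6 h where a time is stated, and the p300 Veh libraries are described as 0 h of KLA. Other wild-type cells received DMSO, the HDAC3 inhibitor RGFP966 or an ERK inhibitor (ERKi, LY3214996) with KLA, and bone marrow cells were taken at day 0 and day 4 of osteoclast differentiation. The labels give those cells as wild type, and the column headers add NCoRWT for 3 of the 4 ERK1 libraries, all but day 4 replicate 2. H3K27ac, the acetyl mark that active promoters and enhancers carry on histone H3, was also measured in NCoR flox/flox (WT) and NCoR flox/flox, LysMCre (NKO) cells, and in PGC1b flox/flox (flox) and PGC1b flox/flox, LysMCre (flox Cre) cells. In both crosses the controls carried the flox alleles too, and LysMCre acts in myeloid cells. Nothing in the labels says that the 2 replicates of a group came from separate animals, so the p-values measure the spread between these samples.

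In the mammalian clock, CLOCK or its paralogue NPAS2 pairs with BMAL1, the product of Arntl, and activates genes through E-boxes. PER and CRY proteins repress that activator, and the Rev-erb nuclear receptors encoded by Nr1d1 and Nr1d2 form the second loop: they bind a single extended response element shared with the ROR receptors and recruit NCoR and HDAC3 to repress Arntl, Clock and Npas2. Bhlhe40 and Bhlhe41 encode DEC1 and DEC2, E-box-binding repressors. NCoR serves the Rev-erbs as the corepressor that carries HDAC3 to chromatin, where the enzyme removes acetyl marks.

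All libraries had between 4296236 and 21511411 tags, and levels are given as tags per 10000000 mapped tags, called normalized tags here. HDAC3 KLA replicate 2 stood apart, with 5694199 tags of which 46.5% lay in the listed regions against 31.2% in replicate 1. Fosl2 KLA replicate 1 held 4296236 tags with 16.4% in regions against 32.3% in replicate 2. H3K27ac regions were listed at all 6 macrophage marker genes, at 4 or 5 of 6 osteoclast markers, and at none of 4 T cell, 4 B cell or 4 fibroblast markers in the 3 H3K27ac tables, and at 2 of 4 neutrophil markers, whose summed levels reached 82.9 normalized tags at most. PU.1 regions were listed at 1 of 4 T cell markers (Cd4) and 1 of 4 B cell markers (Ms4a1). Fewer cells and less bound protein per cell cannot be told apart in these bulk samples.

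The Rev-erb response element core TAGGTCA occurred in 4 of the 47 NCoR regions, counted on both strands in the 200 bases about each region's centre. Among all NCoR regions on the assembled chromosomes 2.66% held it, and of the 4 one lay upstream of Npas2, one at the Arntl start, one in the first intron of Cry1 and one in the 3′ UTR of Bhlhe41. Of all NCoR regions with the core, 24.6% were lower with KLA at the thresholds given below, against 16.7% of all NCoR regions. The lines below give 30 bases about each match on the strand of the motif, with the core in capitals, because the Npas2 region had the lowest NCoR log2 fold change of the 47. Distances are from the region's centre to the listed start site, negative upstream, and the sequences are from GRCm38 (mm10), the build of the files.
Npas2 -1451 bp, chr1:39192826-39192855 (+): ttggaaaaatatgTAGGTCAgtggaacatt
Arntl +26 bp, chr7:113207528-113207557 (+): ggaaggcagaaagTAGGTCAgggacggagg
Cry1 +23140 bp, chr10:85161900-85161929 (+): atagtttctaaagTAGGTCAtcgctatagc
Cry1 +23140 bp, chr10:85161954-85161983 (-): acagactagaaagTAGGTCAttgtgatggg
Bhlhe41 +4832 bp, chr6:145860541-145860570 (-): ctcatacatctgcTAGGTCAgtcccctgaa

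At Npas2 the match was centred 21 bases from the middle of the region, and at Cry1 the nearer of a pair was 2 bases from it. A direct repeat of GGTCA with 3 bases between, the paired Rev-erb site, was found in 0 of the 47 regions and in 0.145% of all. The E-box CACGTG was found in 12 of 47 regions against 4.30% of all. The AP-1 sequence TGANTCA was found in 8 against 20.9% of all, a kB sequence in 2 against 2.79%, and the PU.1 sequence GAGGAAGT in 3 against 10.7%. A match is a run of letters and not a bound site. The 200-base windows of 4 regions are printed because they run from Npas2 -1451 bp, where few NCoR tags were left with KLA, to Nr1d1 -579 bp, where both conditions overlapped. The regions described below as higher in NCoR with KLA are not among them. Capitals mark any of the 6 motifs searched.
Npas2 -1451 bp, chr1:39192721-39192920 (+): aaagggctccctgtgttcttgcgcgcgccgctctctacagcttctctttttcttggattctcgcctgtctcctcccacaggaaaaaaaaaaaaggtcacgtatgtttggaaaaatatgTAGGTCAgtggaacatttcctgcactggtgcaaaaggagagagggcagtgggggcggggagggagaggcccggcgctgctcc
Cry1 +23140 bp, chr10:85161814-85162013 (+): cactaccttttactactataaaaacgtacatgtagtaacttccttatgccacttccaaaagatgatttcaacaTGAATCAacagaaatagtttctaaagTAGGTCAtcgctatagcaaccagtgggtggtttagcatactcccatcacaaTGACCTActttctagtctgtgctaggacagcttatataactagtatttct
Nr1d1 -579 bp, chr11:98775856-98776055 (+): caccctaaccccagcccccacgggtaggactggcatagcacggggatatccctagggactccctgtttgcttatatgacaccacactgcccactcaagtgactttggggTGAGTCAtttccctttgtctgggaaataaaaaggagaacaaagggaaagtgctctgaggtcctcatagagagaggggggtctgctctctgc
Nr1d1 -8161 bp, chr11:98783438-98783637 (+): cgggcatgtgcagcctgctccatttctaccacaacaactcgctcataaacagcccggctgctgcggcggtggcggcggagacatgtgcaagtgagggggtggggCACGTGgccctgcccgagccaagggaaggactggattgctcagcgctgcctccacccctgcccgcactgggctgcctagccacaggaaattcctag

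Among the activator genes, NCoR differed most between conditions at a region upstream of Npas2 (chr1:39192707-39192935, intergenic, centre at -1451 bp). It held 429 and 443 normalized tags in the 2 Veh libraries and 12.2 and 14.5 in the 2 KLA libraries, a log2 fold change of -5.01 (SE 0.24). The Veh and KLA libraries did not overlap. Of the 55045 NCoR regions, 43 had a lower log2 fold change, and of the 9649 with at least 100 normalized tags in Veh, 5 did. The neighbouring Npas2 regions did not follow to that extent: the one at -2500 bp held 165 and 210 with Veh and 100 and 98.2 with KLA, and the one in intron 1 at +10922 bp held 147 and 191 with Veh and 72.1 and 100 with KLA. Both were lower with KLA in every library, by less than 1 on the log2 scale.

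At Arntl the region over the start site (+26 bp, chr7:113207364-113207619) held 344 and 380 normalized tags of NCoR with Veh and 68.8 and 73.3 with KLA, a log2 fold change of -2.35 (SE 0.19). The Veh and KLA libraries did not overlap there. Upstream, the region at -441 bp held 52.6 and 74.2 with Veh against 8.10 and 8.30 with KLA, and the one at -14257 bp held 74.1 and 53.0 against 17.0 and 10.4. Clock had only 2 NCoR regions, both intronic. The one at +54222 bp held 0 tags in both Veh libraries and 17.0 and 11.8 normalized tags with KLA, which is at least 7.97-fold higher against a floor of 3 tags over the Veh group.

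Among the negative limb, NCoR at Per1 differed by position. The regions at +490 bp (46.6 and 49.4 with Veh, 10.5 and 5.53 with KLA) and at -2991 bp (59.7 and 49.4, then 12.2 and 6.92) were lower with KLA. The region at -167 bp, at a Per1 promoter, held 88.4 and 81.2 with Veh and 92.3 and 66.4 with KLA, and its libraries overlapped. Cry1 showed both directions: its intron 1 region at +23140 bp held 210 and 274 with Veh and 102 and 117 with KLA, while its upstream region at -5102 bp held 0 and 10.6 with Veh and 23.5 and 42.2 with KLA. The only Per2 region, in intron 9, held 22.7 and 17.7 with Veh and 47.8 and 41.5 with KLA.

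The Rev-erb genes held NCoR in both conditions. Nr1d1 at -579 bp held 243 and 292 normalized tags with Veh and 340 and 270 with KLA, and the 2 conditions overlapped. Its intron 1 region at +1575 bp held 178 and 184 with Veh and 280 and 255 with KLA, both KLA libraries being higher. At -8161 bp it held 369 and 435 with Veh and 240 and 257 with KLA. Its promoter region at -63 bp was lower with KLA, at 63.2 and 67.8 against 191 and 171. At Nr1d2 the intron 1 region at +5149 bp held 160 and 246 with Veh and 222 and 269 with KLA, and the libraries overlapped.

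Both DEC genes held less NCoR at their promoters with KLA. Bhlhe40 at -163 bp held 151 and 164 with Veh and 36.4 and 27 with KLA, and its region at -504 bp held 82.4 and 105 with Veh and 20.2 and 18.0 with KLA. Bhlhe41 at -1267 bp held 49.0 and 58.8 with Veh and 12.2 and 22.1 with KLA, and at +4832 bp it held 96.8 and 177 with Veh and 55.1 and 49.8 with KLA. The distal Bhlhe41 region at -17801 bp held 72.9 and 102 with Veh and 87.5 and 76.8 with KLA, with overlapping libraries.

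The median NCoR log2 fold change over the 47 regions was -0.72, against 0.10 over all NCoR regions. Since this contrast chose the genes, no test of it is given, and nothing is read from the median. For all other tables a region was called at an adjusted p under 0.05 with a log2 fold change beyond 1 in either direction (edgeR quasi-likelihood test), and rose or fell below means called.

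**Figure D1:**
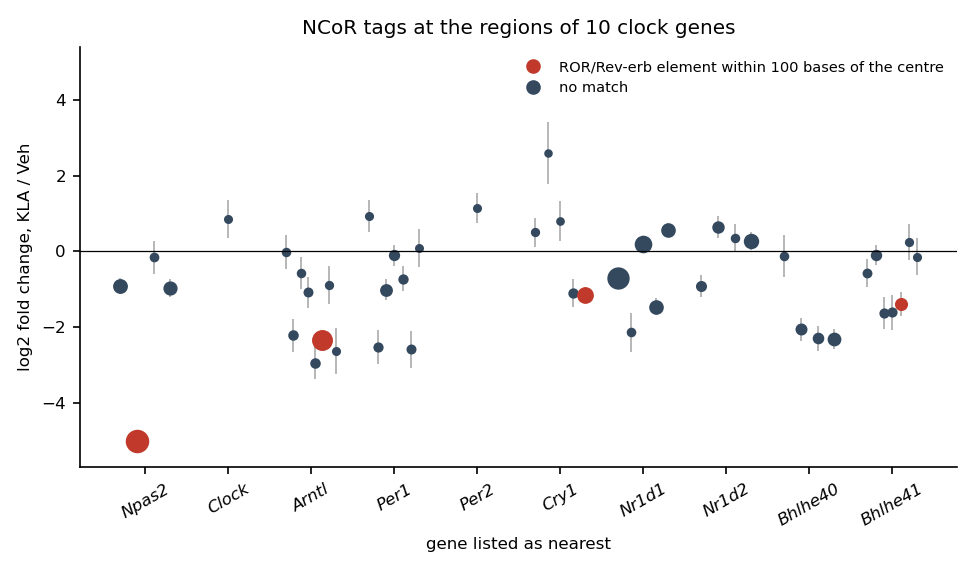
The log2 fold change of NCoR tags (KLA over Veh) is plotted for the regions of each gene, placed in order of distance to the start site within each gene, with error bars of 1 SE and point diameter growing with the mean Veh level. The Npas2 point at -5.01 is the lowest, red points hold the Rev-erb element, and the Clock region with 0 tags in both Veh libraries is not drawn.

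HDAC3 was tested with these genes already chosen, in separate libraries of the same cells and treatments. Those libraries share a library date and the labelled inputs with the NCoR libraries. Over all paired regions the NCoR and HDAC3 changes went together (Pearson r = 0.88). The HDAC3 test at Npas2, chosen on its NCoR tags, is therefore not independent of that choice. HDAC3 fell at Npas2: the region at -1444 bp held 214 and 215 normalized tags with Veh and 7.03 and 3.51 with KLA, a log2 fold change of -5.15 (SE 0.49, adjusted p = 2.85e-23). The Veh and KLA libraries did not overlap. HDAC3 also fell at Per1 +482 bp, from 56 and 57 to 8.21 and 0 (-3.31, SE 0.57, adjusted p = 7.6e-08), and at Bhlhe41 -1309 bp, from 77.8 and 76.9 to 15.2 and 14.0 (-2.38, SE 0.47). It rose at the Nr1d2 intron region at +2478 bp, from 11.6 and 6.08 to 70.3 and 75.5 (3.05, SE 0.50, adjusted p = 1.19e-08). Each of these 4 calls held when any 1 of the 4 libraries was left out.

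In all, 11 of 40 HDAC3 regions fell and 6 rose, where 11.3% and 27.5% of all HDAC3 regions did, and the median log2 fold change was -0.39 against 0.27 over all. Scaling by the trimmed mean of M values (TMM), which centres the typical region at no change and moved the median of all HDAC3 regions by -0.28, gave 15 lower and 4 higher. The Arntl start site fell from 131 and 121 to 35.2 and 45.7 (-1.67, SE 0.39, adjusted p = 0.000109), but leaving out HDAC3 Veh replicate 1 or 2 ended that call (adjusted p = 0.111 and 0.0831). In place of 17 regions, 4 were called without Veh replicate 1, 5 without Veh replicate 2, 15 without KLA replicate 1 and 20 without the shallow KLA replicate 2. At the Rev-erb genes HDAC3 was present in both conditions: Nr1d1 -569 bp held 319 and 280 with Veh and 292 and 527 with KLA, and Nr1d2 +5152 bp held 157 and 166 against 169 and 221. The 2 conditions overlapped at Nr1d1 -569 bp and not at Nr1d2 +5152 bp, and neither passed the test. HDAC3 rose at Nr1d1 +1598 bp, from 143 and 127 to 200 and 407 (1.15, SE 0.37, adjusted p = 0.00676). That call did not hold in every fit with a library left out.

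An HDAC3 region lay within 500 bp of 38 of the 47 NCoR regions (80.9%), and of 80.4% of all NCoR regions. Over the 36 such sites counted once, the NCoR and HDAC3 log2 fold changes had Pearson r = 0.92 and the same sign at 33. Without the Npas2 sites r was 0.89 over 32, and over all 44266 paired regions it was 0.88 with 85.4% of the same sign. The sites are parts of the same genes and share the 8 libraries, so the correlation is a description across sites.

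**Figure D2:**
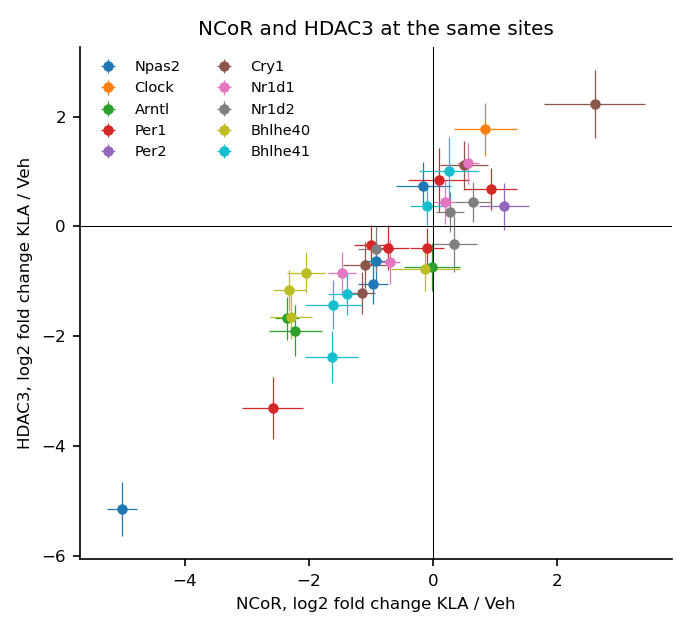
Each point is a clock-gene site, with the NCoR log2 fold change (KLA over Veh) on the x axis and that of HDAC3 on the y axis, coloured by gene, with error bars of 1 SE. The Npas2 site at -5.01 and -5.15 lies lowest on both axes, and most other points lie near the same rising line.

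At the Npas2 upstream site the other factors were sparse. ERK1 tags fell from 29.9 and 22 to 0 and 0 in a region centred at -1393 bp, at least 13.1-fold lower against a floor of 3 tags over the KLA group (adjusted p = 0.0127), and the call held with any library left out. PGC1b fell from 13.5 and 22.8 to 3.28 and 5.15 (-2.03, SE 0.62, adjusted p = 0.0231), but not without PGC1b Veh replicate 1 or 2 (adjusted p = 0.0659 and 0.488). p65 fell from 15.8 and 13.1 to 1.34 and 6.84 (-1.80, SE 0.69, adjusted p = 0.0382), a call lost without Veh replicate 1 (0.0573) or KLA replicate 1 (0.508) or 2 (0.161). In the experiment with DMSO, PGC1b at -1482 bp held 14.6 and 40.8 with Veh, 3.95 and 2.98 with KLA, and 3.13 and 15.5 with ERKi and KLA, and the KLA difference did not pass the test (-2.93, SE 1.17, adjusted p = 0.0840). No p300, PU.1 or Fosl2 region had its centre within 500 bp of it, and no Npas2 region was listed in the 3 H3K27ac tables.

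**Figure D3:**
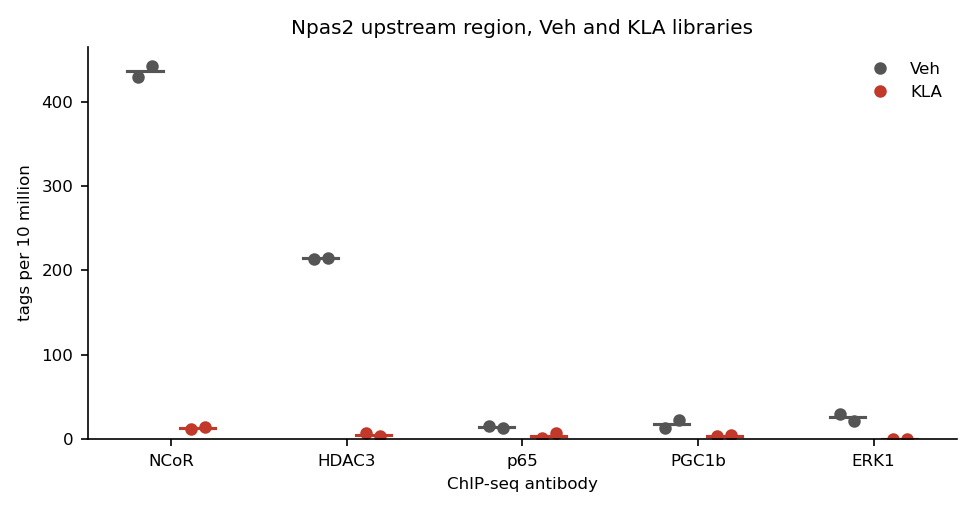
Normalized tags at the Npas2 upstream region are plotted for each library (points) and their mean (short lines), for Veh (grey) and KLA (red), by antibody. NCoR goes from 429 and 443 to 12.2 and 14.5 and HDAC3 from 214 and 215 to 7.03 and 3.51, and none of the plotted p65, PGC1b and ERK1 libraries exceeds 29.9 (the PGC1b libraries with DMSO are not plotted).

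For p65, the NF-kB subunit that enters the nucleus on TLR4 signalling, 13 of 36 member regions rose and 6 fell, where 57.0% and 5.43% of all p65 regions did. The share of tags in regions also moved, from 12.7 and 14.4% with Veh to 34.1 and 37.1% with KLA, and TMM scaling, which moved the median of all p65 regions by -1.22, gave 4 higher and 10 lower. The clearest rise was at Nr1d1 -566 bp, from 26.3 and 37.3 to 149 and 161 (2.29, SE 0.28, adjusted p = 5.31e-05), which stayed called with TMM (1.07). At Per1 -4113 bp p65 rose from 37.6 and 37.3 to 148 and 159 (2.03, SE 0.26, adjusted p = 6.62e-05), and at Nr1d1 +1557 bp from 64.8 and 95.1 to 190 and 224 (1.37, SE 0.25). With TMM those 2 were 0.81 and 0.15 and no longer passed. These 3 were the only p65 calls that held without each library in turn, and without KLA replicate 1 or 2 the number called was 5 and 7.

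p65 also rose at sites that held none with Veh. Cry1 -5075 bp held 0 and 0 with Veh and 14.0 and 16.4 with KLA, at least 11.2-fold higher, and Nr1d2 -1329 bp held 0 and 0 with Veh and 20.0 and 23.9 with KLA, at least 16.2-fold higher, against a floor of 3 tags over the Veh group. The first call was lost without p65 KLA replicate 1 or 2 and the second without replicate 2 (highest adjusted p = 0.0956 and 0.0513). Both Bhlhe41 promoter regions fell, at -62 bp from 50.8 and 76.4 to 15.4 and 19.8 (-1.85, SE 0.40) and at -1305 bp from 79.7 and 58.7 to 10.7 and 28.7 (-1.81, SE 0.46). Without KLA replicate 1 neither call held (adjusted p = 0.0610 and 0.102).

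p300, an acetyltransferase that writes H3K27ac, rose at 8 and fell at 9 of 48 member regions, where 42.1% and 12.9% of all p300 regions did. The median log2 fold change of the members was -0.26, against 0.65 over all regions, while the share of tags in regions went from 23.7 and 22% with Veh to 35.5 and 35.3% with KLA. TMM scaling, which moved the median of all p300 regions by -0.52, gave 4 higher and 19 lower. Among the activators p300 fell at 2 sites upstream of Arntl, from 68.9 and 56.5 to 12.8 and 17.3 at -14246 bp (-2.06, SE 0.33, adjusted p = 5.35e-05) and from 54.5 and 31.5 to 7.16 and 12.4 at -27015 bp (-2.14, SE 0.44). Among the repressors it rose at Cry1 -5081 bp, from 4.39 and 1.31 to 45.5 and 49.7 (4.01, SE 0.51, adjusted p = 5.63e-06), and fell at Per1 +518 bp, from 32.6 and 46.0 to 12.3 and 10.8 (-1.76, SE 0.40).

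At the Rev-erb genes p300 rose in Nr1d1 at +2621 bp, from 3.76 and 2.63 to 26.1 and 21.1 (2.85, SE 0.56). The Nr1d1 regions at +1538 bp (127 and 114 with Veh, 225 and 199 with KLA) and -584 bp (97.2 and 57.8, then 136 and 152) were higher in both KLA libraries, by less than the fold threshold. It fell at Bhlhe41 -1347 bp, from 58.9 and 42.1 to 17.9 and 21.1 (-1.37, SE 0.34). Of the 17 calls, the 6 regions called here and above held without each library in turn and with TMM scaling, and the other 11 were lost in at least 1 of the fits with a library left out. Without p300 KLA replicate 1 the count of calls was 7.

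**Figure D4:**
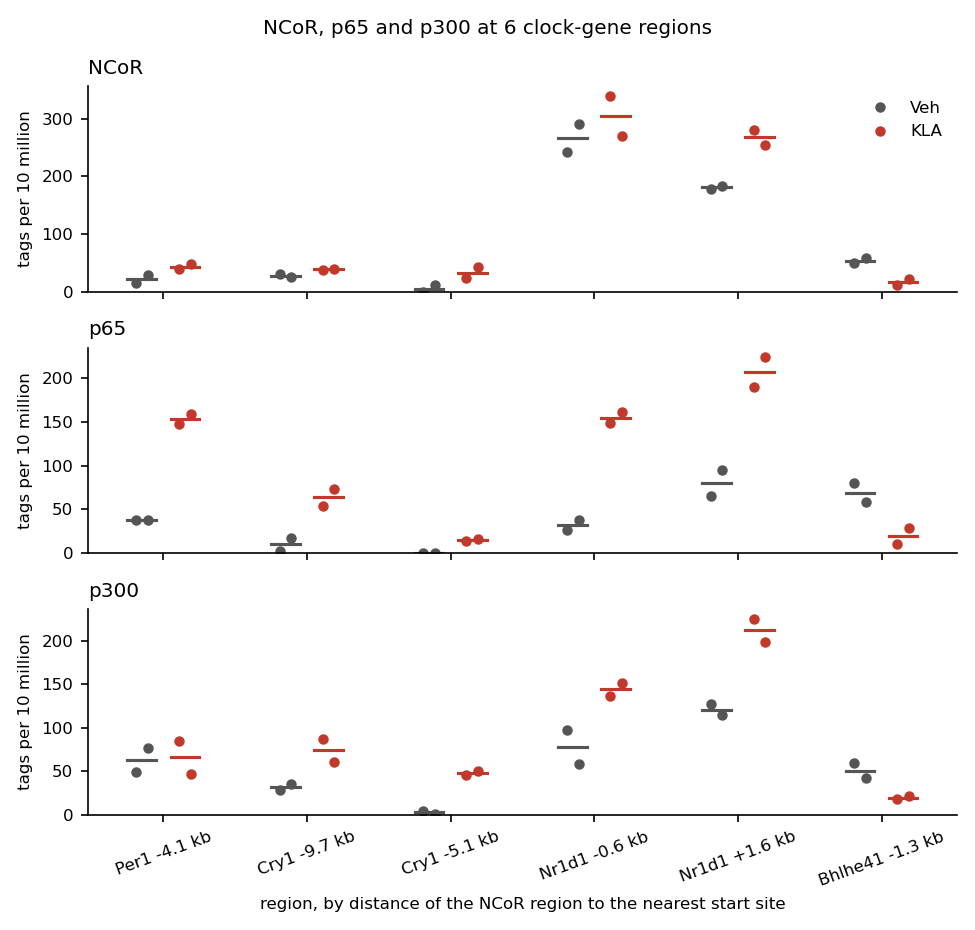
Normalized tags are shown for NCoR, p65 and p300 (top to bottom) at 6 clock-gene regions, with each library as a point, the mean as a short line, Veh in grey and KLA in red. p65 goes from 26.3 and 37.3 to 149 and 161 at Nr1d1 -566 bp, and NCoR in its region at -579 bp is 243 and 292 with Veh and 340 and 270 with KLA.

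PU.1, which marks macrophage enhancers, fell at 11 of 33 member regions and rose at 1, where 21.7% and 4.53% of all PU.1 regions did. The largest fall on the log2 scale was in the Arntl intron region at +79866 bp (75.5 and 65.4 with Veh, 19.6 and 18.5 with KLA, -1.89, SE 0.22). Next came Bhlhe41 -1394 bp (71.9 and 61.0, then 20.3 and 24.9, -1.56, SE 0.22) and Bhlhe40 -512 bp (46.0 and 49.2, then 20.3 and 14.0, -1.47, SE 0.24). PU.1 also fell at Arntl -10105 bp (170 and 191, then 64.8 and 65.6, -1.46, SE 0.13). It rose in Clock at +54176 bp, from 42.4 and 40.5 to 98.8 and 113 (1.35, SE 0.17). That is the intron site where NCoR was at 0 tags with Veh. Of the 12 calls 8 held without each library in turn. TMM scaling moved the median of all PU.1 regions by 0.42 and gave 2 higher and 4 lower, with the 2 Arntl regions and the Clock region still called.

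PGC1b, a transcriptional coactivator, fell at 5 of 35 regions and rose at none, where 6.35% and 16.4% of all PGC1b regions did. The fall with the lowest adjusted p was at Bhlhe41 -1346 bp, from 31.1 and 42.8 to 7.65 and 9.15 (-2.11, SE 0.46, adjusted p = 0.00284). Without PGC1b Veh replicate 2 none of the 5 held (adjusted p = 0.0643 at Bhlhe41 -1346 bp), and TMM scaling gave 8 lower. With DMSO in the medium, 1 of 36 PGC1b regions rose with KLA and none fell, where 16.4% and 1.23% of all did. That region, Per2 +21576 bp, was not called once any library was left out. ERKi with KLA against DMSO with KLA gave 0 of 36 PGC1b calls by edgeR, with 2 at an unadjusted p under 0.05 and 0 by DESeq2, where 0.286% of all regions were called, and it shares the DMSO with KLA libraries.

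Fosl2 fell at 2 of 22 regions and rose at none, where 4.19% and 11.4% of all Fosl2 regions did. At Arntl -14277 bp it fell from 73.4 and 64.0 to 0 and 16.4 (-2.87, SE 0.97, adjusted p = 0.0255), a call lost without Fosl2 Veh replicate 1 or 2 (adjusted p = 0.776 and 0.717). ERK1 fell at 2 of 22 regions and rose at none, where 2.53% and 10.3% of all ERK1 regions did. These were Npas2 -1393 bp, above, and Bhlhe41 -719 bp, which went from 18.9 and 19.7 to 0 and 0 (adjusted p = 0.0162) and was not called once any library was left out. At the Rev-erb genes ERK1 was seen in both conditions, with 99.1 and 72.8 at Nr1d1 +1514 bp with Veh and 101 and 88.5 with KLA.

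NCoR was also profiled with ERKi and KLA. These libraries carry another library date than the KLA libraries they are set against, and the labels name no DMSO for those KLA libraries. The inhibitor, its solvent and the date therefore cannot be told apart. The KLA libraries are also those of the contrast that chose the genes. At Npas2 -1447 bp NCoR held 12.2 and 14.5 normalized tags with KLA and 27.9 and 16.4 with ERKi and KLA, against 435 and 455 with Veh. At the Arntl start site it held 68.8 and 73.3 with KLA and 87.1 and 63.8 with ERKi. Nr1d2 +5125 bp held 260 and 311 with KLA and 60.0 and 115 with ERKi. Nr1d1 -8177 bp held 240 and 262 with KLA and 193 and 128 with ERKi, a log2 fold change of -0.65 that turned to 0.51 with TMM scaling. In all 13 of 48 member regions were called lower and none higher, where 48.6% and 0.634% of all regions were. Because the choice of genes drew on these KLA libraries, the counts are a description and nothing is read from them. The share of tags in regions was 34.2 and 33.3% with KLA and 15.8 and 15% with ERKi, and TMM scaling, which moved the median of all regions by 1.16, gave 3 higher and 1 lower.

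During osteoclast differentiation, p300 rose at 8 of 14 member regions and fell at none, where 62.2% and 0.248% of all regions did. Nr1d1 +1539 bp went from 32.5 and 19.2 at day 0 to 83.1 and 93.0 at day 4 (1.69, SE 0.42, adjusted p = 0.00469), and Bhlhe40 -177 bp from 23.7 and 27.7 to 78.2 and 68.1 (1.53, SE 0.43, adjusted p = 0.00899). With TMM scaling these were 0.07 and -0.09. With the share of tags in regions going from 3.08 and 3.16% to 9.61 and 9.53%, TMM scaling moved the median of all regions by -1.61 and gave none higher and 1 lower, and none of the 8 held without p300 day 4 replicate 1 or 2. ERK1 rose at 1 of 14 regions and fell at none, where 2.33% and 0.0267% of all did: Bhlhe41 +4634 bp went from 2.58 and 2.10 to 23.3 and 44.2 (adjusted p = 0.0334). That call ended without either day 4 library, of which replicate 2 is described as replicate 3 with another library date.

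H3K27ac fell at some of the regions of Nr1d1, Bhlhe41, Arntl and Bhlhe40 with KLA in wild-type cells given DMSO. At Nr1d1 -8058 bp it went from 164 and 141 normalized tags to 40.1 and 21.9 (-2.27, SE 0.26, adjusted p = 3.84e-17), and at Bhlhe41 -1361 bp from 153 and 140 to 42.7 and 25.2 (-2.08). The Bhlhe41 promoter at -139 bp fell from 292 and 275 to 98.4 and 64.0 (-1.79, SE 0.22), and Arntl -14255 bp from 32.4 and 40.1 to 5.18 and 10.1 (-2.28). In all 6 of 23 tested regions (27 were listed) fell and none rose, where 28.1% and 6.73% of all did. Arntl -10125 bp fell from 64.8 and 73.3 to 31.7 and 11.8, and these 5 held without each library in turn. The sixth, Bhlhe40 -1136 bp (260 and 221, then 124 and 87.5), was lost without DMSO KLA replicate 2. The share of tags in regions went from 31.5 and 30.6% with Veh to 27.9 and 22.9% with KLA. TMM scaling, which moved the median of all regions by 0.42, gave 5 lower and none higher. The Nr1d2 intron region at +5050 bp, where the NCoR libraries of both conditions overlapped, held 207 and 237 with Veh and 300 and 256 with KLA and did not pass the test.

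RGFP966 with KLA, set against those same DMSO with KLA libraries, gave higher H3K27ac at 7 of 23 regions and lower at 2, where 26.9% and 9.53% of all regions changed so. Nr1d1 -8058 bp held 116 and 111 with RGFP966 (1.84, SE 0.26, adjusted p = 4.78e-11) and Bhlhe41 -1361 bp held 109 and 110 (1.66). Both lay between the DMSO Veh and DMSO KLA levels given above. Nr1d1 +1444 bp rose from 23.3 and 24.4 to 67.1 and 52.2 (1.32) and Bhlhe41 +4875 bp from 20.7 and 26.1 to 70.4 and 72.5 (1.62). The 2 that fell were Nr1d2 -137 bp, from 113 and 74.1 to 44.8 and 29.8 (-1.34, SE 0.26), and Per1 -3759 bp, from 31.1 and 42.9 to 12.5 and 18.3 (-1.25). Those were lost without DMSO KLA replicate 1 (-0.99 on the log2 scale) and without RGFP966 replicate 1, and TMM scaling, which moved the median of all regions by -0.34, gave 5 higher and 3 lower. Some of the rises were lost in such fits too: of the 9 calls in both directions, 4 held without each library in turn. With TMM scaling Nr1d1 +1444 bp was at 0.98, under the fold threshold.

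In the NCoR flox/flox experiment, which had 5.55 to 7.18% of tags in regions, 2 of the 24 member regions that passed the tag filter (26 were listed) fell with KLA in WT and none rose, where 3.72% and 6.49% of all did. In NKO 3 fell and none rose, where 7.96% and 2.75% did. The Nr1d1 promoter region at -4 bp fell in NKO, from 39.8 and 30.8 to 11.1 and 16.7 (-1.35, SE 0.39, adjusted p = 0.0137). In WT it went from 23.3 and 22.9 to 20.8 and 30.3 (0.14). The difference in response there did not pass the test (-1.49, SE 0.55, adjusted p = 0.187). Its NKO call did not hold in every fit with a library left out. Nr1d2 +621 bp fell in both, from 55.5 and 37.7 to 22 and 20.7 in WT (-1.11, adjusted p = 0.0107) and from 65.6 and 70.2 to 25 and 36.1 in NKO (-1.17, adjusted p = 0.00435). The WT call was lost without WT Veh replicate 1 (adjusted p = 0.239) or KLA replicate 2 (0.0626), and the NKO call without NKO KLA replicate 1 (0.106) and with TMM scaling (-0.97). Nr1d1 -8150 bp fell in NKO, from 15.5 and 13.3 to 0 and 2.08 (adjusted p = 0.00206), a call lost without NKO KLA replicate 1 (0.0588), and held 14.5 and 13.8 with Veh and 6.29 and 3.45 with KLA in WT. With Veh, NKO against WT gave 0 calls by edgeR, with 5 at an unadjusted p under 0.05 and 0 by DESeq2, where 1.0% of all regions were called. Bhlhe40 -660 bp, at 97.1 and 82.5 in WT and 164 and 145 in NKO, passed the adjusted p but not the fold threshold (0.78, SE 0.17, adjusted p = 0.0086), and TMM scaling gave 0.48 (adjusted p = 0.282). With KLA, 1 region was higher in NKO and none lower, where 0.4% and 0.389% of all were: Bhlhe41 +2351 bp held 40.2 and 26.2 in WT and 89.7 and 106 in NKO (1.54, SE 0.26, adjusted p = 0.000436), a call that held without each library in turn. With Veh that region held 36.6 and 59.6 in WT and 92.2 and 77.8 in NKO (0.80, SE 0.24, adjusted p = 0.0707, not called). Testing whether NKO and WT differed in their response to KLA gave 0 calls by edgeR, with 7 at an unadjusted p under 0.05 and 0 by DESeq2, where 0.697% of all were called. At Bhlhe41 +2351 bp the difference in response was 0.74 (SE 0.35, adjusted p = 0.332).

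In the PGC1b experiment 8 of 25 tested regions (27 were listed) fell and 1 rose with KLA in flox cells, where 25.6% and 5.22% of all did. In flox Cre cells 7 fell and none rose, where 32.5% and 4.18% did. TMM scaling, which moved the median of all regions by 0.43 in flox and 0.61 in flox Cre, gave 5 lower and 1 higher in flox and 5 lower in flox Cre. The upstream Bhlhe41 region at -1361 bp fell from 251 and 261 to 44.1 and 54.0 in flox (-2.38, SE 0.16) and from 215 and 207 to 28.2 and 39.1 in flox Cre (-2.64, SE 0.18). Nr1d1 -8058 bp fell from 78.0 and 88.7 to 22 and 34.7 in flox (-1.55, SE 0.24) and from 86.1 and 81.6 to 19.5 and 17.6 in flox Cre (-2.17, SE 0.26). The one rise, at Arntl -26997 bp, went from 18.5 and 18.7 to 39.8 and 42.8 in flox (1.15, SE 0.33) and from 29.9 and 22.6 to 22.4 and 29.3 in flox Cre (-0.02). That difference did not pass the test (adjusted p = 0.0624).

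Set against flox, flox Cre gave 0 calls with Veh (11 at an unadjusted p under 0.05, 0 by DESeq2, where 0.397% of all regions were called) and 0 with KLA (11 and 0, where 7.52% were). Under the fold threshold, 7 regions passed the adjusted p with Veh, all lower in flox Cre, and 8 with KLA, 7 of them lower. With TMM scaling, which moved the median of all regions by 0.21 with Veh and 0.39 with KLA, 0 of the 7 and 3 of the 8 still passed it, and 1 region was called with KLA. With KLA the lowest adjusted p were at Nr1d2, at +5050 bp (-0.95, SE 0.10, adjusted p = 1.12e-17, and -0.55 with TMM) and at -137 bp (-0.92, SE 0.17, adjusted p = 4.23e-07, and -0.52 with TMM). The KLA response differed between flox Cre and flox at 1 region and in the higher direction, where 0.77% of all were called higher and 4.6% lower. That region is Cry1 -407 bp, which held 127 and 116 with Veh and 55.1 and 77.5 with KLA in flox, and 83.6 and 92.2 with Veh and 99.7 and 102 with KLA in flox Cre. The KLA libraries lay below the Veh libraries in flox and above them in flox Cre. In wild-type cells given DMSO the Cry1 region at -407 bp held 52.3 and 82.0 with Veh and 53.1 and 59.7 with KLA (-0.25, SE 0.26, adjusted p = 0.432). In NCoR flox/flox WT cells Cry1 -360 bp held 12.0 and 11.7 with Veh and 32.7 and 20.0 with KLA (1.15, SE 0.44, adjusted p = 0.0672). At Nr1d2 +5050 bp flox held 259 and 276 with Veh and 347 and 369 with KLA, while flox Cre held 203 and 225 with Veh and 191 and 180 with KLA, a difference in response of -0.63 (SE 0.15, adjusted p = 0.000335) that was under the fold threshold. The flox Cre response alone was -0.21 there and 0.41 with TMM.

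**Figure D5:**
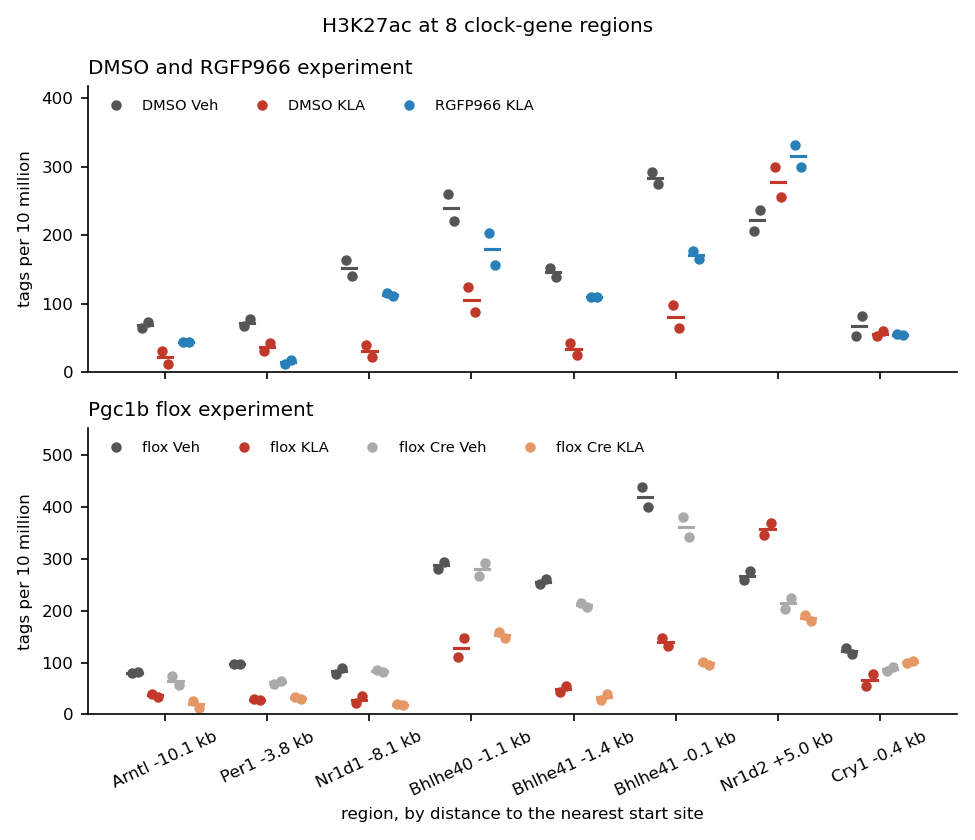
Normalized H3K27ac tags are plotted at 8 clock-gene regions for each library (points) with the mean (short lines), in the DMSO and RGFP966 experiment (top) and the PGC1b flox experiment (bottom). Nr1d1 -8058 bp goes from 164 and 141 to 40.1 and 21.9 with KLA and is 116 and 111 with RGFP966, and Cry1 -407 bp goes from 127 and 116 to 55.1 and 77.5 in flox and from 83.6 and 92.2 to 99.7 and 102 in flox Cre.

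The other clock genes, a list of 18 that included Nfil3, Usp2, Cry2 and Rora, were counted beside the members. Of their 49 NCoR regions 18 were called higher and 7 lower with KLA, where 23.4% and 16.7% of all NCoR regions were. Of 45 HDAC3 regions 13 rose and 4 fell, where 27.5% and 11.3% of all did. p65 rose at 22 of 43 and fell at 2, where 57.0% and 5.43% of all did, and p300 rose at 21 of 49 and fell at 10, where 42.1% and 12.9% did. Nfil3, which encodes a repressor of D-box genes, gained HDAC3 at -43410 bp, from a mean of 22.2 with Veh to 168 with KLA (2.90, SE 0.40). Usp2, a deubiquitinase gene driven by the clock, lost HDAC3 at +4504 bp, from a mean of 73.4 to 25.8 (-1.68, SE 0.45). The KLA means include HDAC3 KLA replicate 2, which stood apart as given above. Calls at these other clock genes were not followed in the fits with a library left out.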

How the data were processed

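Tags were counted in ChIP-seq libraries of bone marrow-derived macrophages and of osteoclast differentiation, each group with 2 replicates. Of the 100 samples in the labels, 70 had a column used here, and 30, the inputs, were not analysed here. Chromatin was fixed with formaldehyde for H3K27ac and with DSG and formaldehyde for the other proteins. The authors aligned reads to mm10 with Bowtie2 and called peaks with HOMER, kept reproducible peaks and merged them per experiment, and the deposited values are the raw count of tags in each merged region, with no adjustment for depth. The versions are not given in the sources used here. The file headers state a cap of 3 reads per position, which limits the highest counts, and 2 H3K27ac tables count 1000 bp windows about accessible regions. All sample columns were mapped to labels. Reference distances to the start site were checked against GRCm38 (mm10), and 47 of 47 NCoR regions came within 10 bp.

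Each table was fitted on all its regions with edgeR 4.0.16 (R 4.3.3), by its quasi-likelihood test with no replicate block, with library totals from the headers as sizes. Regions needed at least 4 tags (16 for H3K27ac) in 1 library. Fold changes are log2 with their SE, p-values are two-sided and Benjamini-Hochberg adjusted over all tested regions of the table, and a region was called at an adjusted p under 0.05 with an absolute log2 fold change over 1. With 2 against 2 the smallest exact permutation p is 0.333, so no permutation test is given. Replicates differed beyond counting noise, with a chi-square per region of 1.31 to 4.03. The code was tested on simulated data. Alternatives were TMM scaling, DESeq2 1.42.0, no filter on low counts, an adjusted p under 0.01, a replicate block and leaving out each library. Figures were drawn with matplotlib 3.10.9.

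Regions were named by rule: the highest mean per gene and table, the nearest to a start site within 2 kb, the called region with the lowest p in each direction, any called in a test of a difference between responses, and any within 500 bp of an NCoR region so named. Others were named after their values were seen, and the members and lists were chosen with earlier results of these data known. The rule that was to name the genes most like Npas2 could not be applied, because Npas2 had no region in the H3K27ac tables.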

Additional observations from a re-analysis of the deposited data

Results flagged for a closer look

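The H3K27ac response to KLA at the Cry1 region at -407 bp differed between flox Cre and flox cells in a test of the difference itself (1.08 on the log2 scale, SE 0.25, adjusted p = 0.000275 by edgeR's quasi-likelihood test). In flox cells the region went from 127 and 116 normalized tags with Veh to 55.1 and 77.5 with KLA (-0.88), and in flox Cre cells from 83.6 and 92.2 to 99.7 and 102 (0.20). A fall of that size was not seen in the control cells of the other experiments. With KLA against Veh, the region was at -0.25 (SE 0.26) in wild-type cells given DMSO. Cry1 -360 bp was at 1.15 (SE 0.44) in NCoR flox/flox WT cells. Without flox KLA replicate 1 the difference between flox Cre and flox was 0.86, under the fold threshold, and over the 8 libraries left out in turn it ran from 0.86 to 1.35. TMM scaling gave 1.27. Cry1 encodes a repressor of the clock.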

How the results depend on the processing

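Values are counts of called clock-gene regions, and where a setting changed one the cause was not tested. At an adjusted p under 0.01 the count for KLA against Veh went from 2 to 1 for Fosl2, 5 to 2 for PGC1b, 2 to 0 for ERK1, 17 to 10 for p300, 1 to 0 for PGC1b with DMSO and 2 to 0 for H3K27ac in WT, and for day 4 against day 0 from 1 to 0 for ERK1 and 8 to 4 for p300. TMM scaling gave 6 for PU.1 in place of 12, 8 for PGC1b in place of 5, 0 for PGC1b with DMSO, 4 for NCoR with ERKi in place of 13, 0 for ERK1 and 1 for p300 at day 4, 1 for H3K27ac in flox Cre against flox with KLA in place of 0, and 2 in place of 1 for the difference between their KLA responses. It also gave 6 for H3K27ac with KLA in flox in place of 9 and 5 in flox Cre in place of 7. DESeq2 gave 6 for PU.1, 5 for NCoR with ERKi, 0 for ERK1 and 0 for p300 at day 4, 1 for H3K27ac in NKO with KLA in place of 3, and 2 for the flox Cre and flox difference.

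Of 429 values for single regions, TMM scaling changed the sign of 99, of which 94 were called under neither scaling and 5 under one. Among the 5, for p65 these were Clock +54204 bp (-0.12) and Bhlhe41 -17798 bp (-0.16), and for p300 at day 4 they were Bhlhe40 -177 bp (-0.088), Nr1d1 -8111 bp (-0.17) and Nr1d2 +686 bp (-1.46, called lower only so). Of the rest, 298 kept their sign and their side of the thresholds, 17 lost a call and 15 gained one.

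Same-numbered replicates shared only a number: the correlations of their deviations ran from -0.027 to 0.026. With the replicate block the count was 0 for Fosl2, 3 for PGC1b, 1 for ERK1 with KLA and 0 for PGC1b with DMSO. Of single regions 12 lost a call and 1 gained one.

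With each library left out in turn, the lone sample being assumed to vary like the other groups, counts with KLA against Veh ran from 13 to 24 for NCoR (the contrast that chose the genes, so nothing is read from it), 4 to 20 for HDAC3, 5 to 25 for p65, 0 to 6 for Fosl2, 10 to 12 for PU.1, 0 to 12 for PGC1b, 0 to 0 for PGC1b with DMSO, 1 to 3 for ERK1 and 7 to 20 for p300. They ran from 0 to 2 for ERK1 and 0 to 10 for p300 at day 4, 8 to 14 for NCoR with ERKi, and 0 to 0 for PGC1b with ERKi. For H3K27ac with KLA against Veh they were 0 to 1 in WT, 1 to 4 in NKO, 6 to 7 with DMSO, 7 to 10 in flox and 6 to 8 in flox Cre. RGFP966 gave 7 to 10, NKO against WT 0 to 0 with Veh and 1 to 2 with KLA, and flox Cre against flox 0 to 0 with Veh and 0 to 1 with KLA. The difference between KLA responses gave 0 to 0 for NKO and WT and 0 to 2 for flox Cre and flox.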
